A study of Mus musculus with 899 samples.

Results

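miR-375-3p was followed in the blood plasma of mice whose thorax had been irradiated. It is 1 of the 1915 mature miRNA listed in the count table of the series, and it was taken as the row that carries the name mmu-miR-375-3p, in all 899 plasma samples of 196 mice. The mice were young adult gnotobiotic C3H (C3Hf/Sed/Kam) and C57Bl/6 animals of both sexes, and the labels name no allele or transgene in any group. They received either a single X-ray dose to the whole thorax with the remainder of the body shielded (whole thorax lung irradiation, WTLI; 64 C3H and 68 C57Bl/6 mice in the sample labels) or sham irradiation (32 mice of each strain). The paper gives an older age range for the females than for the males at exposure, so sex and age cannot be told apart. Blood was drawn before exposure, then at day 2 in one arm of mice and at day 5 in another, and then monthly to month 4 in C3H and to month 6 in C57Bl/6 mice. A code in the sample titles divides the mice of each strain into 2 sets, called cohorts here. The meaning of that code is not stated. Only cohort 1 was followed beyond month 1. A missing later sample is not shown by the labels to be a death, and 4 irradiated C57Bl/6 females have no sample before exposure.

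miRNA are short RNA that pair through their seed, bases 2 to 8, with target mRNA and lower their output. miR-375 is best known from the pancreatic islet, where it is abundant in beta cells and restrains insulin secretion, and it is also made in other endocrine cells and in the epithelium of the gut and other mucosae. In plasma it circulates in vesicles and protein complexes, and a change in its level can follow from a change in release, in the number of releasing cells or in clearance, which cannot be told apart in these data, where each level is also relative to the other miRNA of the sample.

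The precursor of miR-375 lies at chr1:74900658-74900721 on the minus strand of GRCm38, in intergenic sequence 1350 bases from the protein coding gene Cfap65 and 7515 bases from Cryba2, which encodes a lens crystallin. The RefSeq hairpin is shown because it is the source of both arms, with the 5p arm in capitals.
Mir375 hairpin: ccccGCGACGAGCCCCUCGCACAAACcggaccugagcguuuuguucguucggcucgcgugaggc
Reads came from the 3p arm alone. The 5p arm is listed in the table but had 0 reads among 1523756227 reads in all samples, which allows a share of up to 3 in 1523756227. The mature sequences of 5 further miRNA to which the results below turn are given here, with the seed in capitals. They are 2 members that share a seed and varied together with miR-375-3p between mice (miR-192-5p and miR-215-5p), and 3 whose response to irradiation over time was most like its own.
miR-192-5p: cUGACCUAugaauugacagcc
miR-215-5p: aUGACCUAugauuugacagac
miR-202-3p: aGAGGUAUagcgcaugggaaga
miR-202-5p: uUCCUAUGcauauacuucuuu
miR-182-5p: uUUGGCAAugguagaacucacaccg
Of 43 miRNA looked up by name, 36 had a mature sequence in the RefSeq table (GRCm38.p6).

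miR-375-3p was read in all 899 samples, with 70 to 19968 reads per sample (median 1396). Total counts ranged from 206490 to 11814515 per sample (median 1475030). Levels are given as log2 CPM after TMM scaling, with a prior count of 2, and shares before that scaling as RPM. The sample levels ran from 211 to 7815 CPM, a 37.0-fold range, and the miRNA ranked between 18 and 101 within its sample (median rank 61). The lowest level, 138.5 RPM before TMM scaling (exact 95% interval 110.7 to 171.3), was in a sham irradiated C57Bl/6 female at day 5, and the highest, 7226 RPM (7057 to 7397), in an irradiated C57Bl/6 female at day 2. These intervals cover counting error only, and the differences between mice described below are far larger. Tests are edgeR quasi-likelihood tests over 483 miRNA with Benjamini-Hochberg adjusted p-values and a threshold of 0.05.

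Before exposure, no difference in miR-375-3p was detected between mice assigned to irradiation and to sham. The log2 fold change was 0.02 ± 0.12 (SE; 64 against 32 mice, adjusted p = 0.994) in C3H and -0.01 ± 0.12 (64 against 32, adjusted p = 0.991) in C57Bl/6 mice, and 0% of the tested miRNA were called in either strain. C57Bl/6 mice started 0.04 ± 0.08 above C3H mice (95% interval -0.13 to 0.20, adjusted p = 0.729), while 50.7% of all tested miRNA were called between the strains at that time.

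At day 2 after WTLI, miR-375-3p rose in both strains, and in C57Bl/6 mice the groups were almost completely separated. Irradiated C57Bl/6 mice had 10.27 log2 CPM at the lowest, 11.72 at the median and 12.93 at the highest (n = 32), compared to 8.79, 9.49 and 10.30 in sham irradiated mice (n = 16). Of the 32 irradiated mice, 30 were above the highest sham value, and 1 sham mouse exceeded the lowest irradiated mouse. The log2 fold change was 2.37 ± 0.19 (SE), a 5.15-fold increase (95% interval 3.97 to 6.68; adjusted p = 7.38e-30), and it had the lowest p-value of all miRNA tested in a comparison that called 6.63% of them. The median share of reads rose from 0.0634% to 0.379%, and the median rank of miR-375-3p within a sample from 68 to 33.

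In C3H mice the rise at day 2 was smaller and the groups overlapped. Irradiated C3H mice had 9.55 log2 CPM at the lowest, 10.99 at the median and 12.83 at the highest (n = 32), against 8.28, 10.09 and 11.20 in sham irradiated controls (n = 16). Of the irradiated mice, 12 of 32 were above the highest sham value and 28 of 32 were above the sham median. The log2 fold change was 1.16 ± 0.18, or 2.23-fold (95% interval 1.75 to 2.84; adjusted p = 1.86e-08), the fourth lowest p-value in a comparison that called 4.97% of the miRNA tested.

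**Figure D1:**
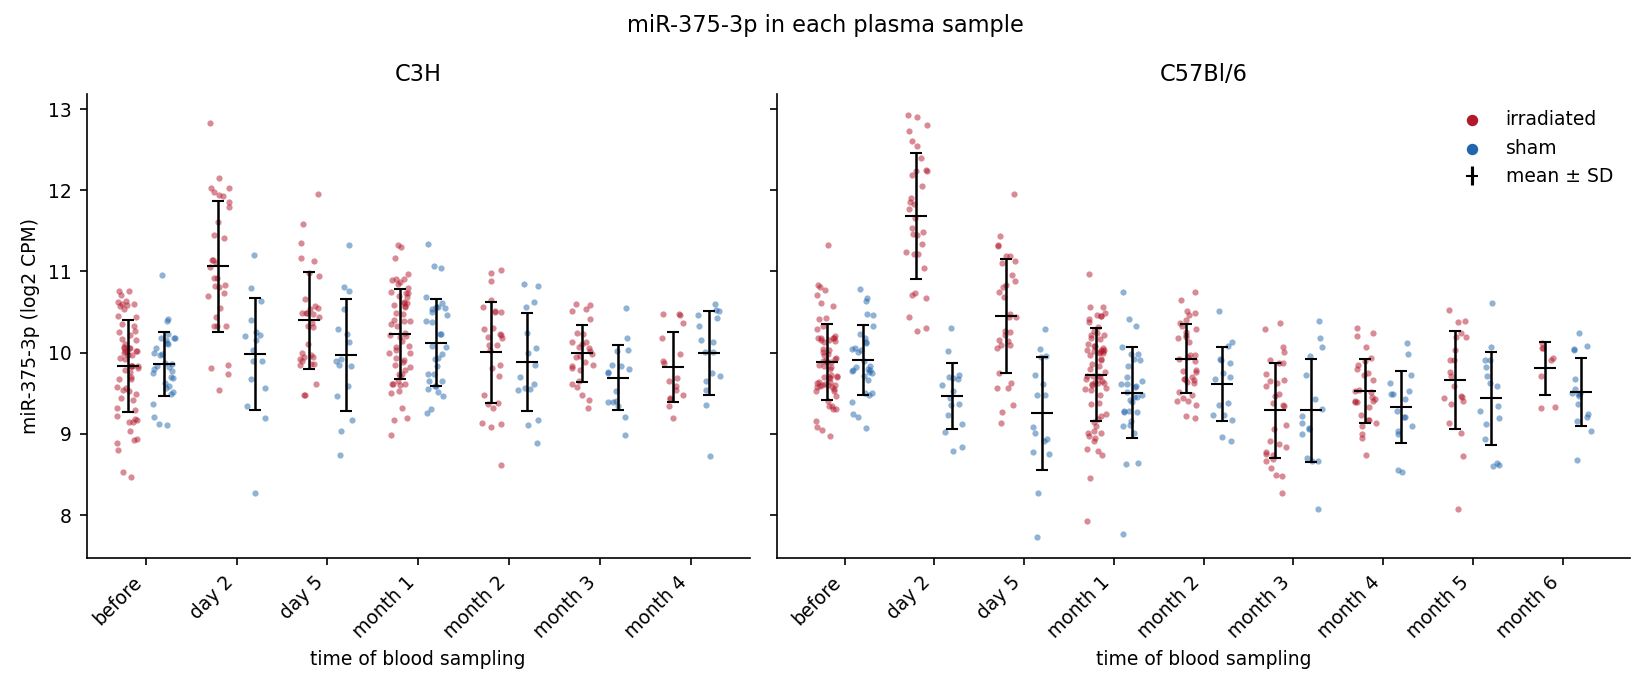
Level of miR-375-3p (log2 CPM, vertical axis) in each plasma sample by time of blood sampling (horizontal axis) for C3H (left) and C57Bl/6 mice (right). Points are samples of irradiated (red) or sham irradiated (blue) mice and black bars give the mean ± SD. At day 2, 30 of 32 irradiated C57Bl/6 mice but 12 of 32 irradiated C3H mice lie above the highest sham mouse.

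The irradiated C57Bl/6 samples at day 2 also differed from sham in library depth and red blood cell RNA, 2 properties of the sample that could move with a plasma miRNA. Their median total was 859418 reads against 1300997 in sham, and the mean log2 ratio of miR-451a, an erythrocyte miRNA, to miR-23a-3p was -0.77 ± 1.01 (SD) against -0.16 ± 0.83. With that ratio as a covariate the log2 fold change was 2.41, and among samples of at least 500000 reads it was 2.47. In C3H mice the ratio was 0.42 ± 0.87 in irradiated and 0.53 ± 0.59 in sham samples.

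By day 5, measured in other mice, the difference had declined in C57Bl/6 mice and was not called in C3H mice. Irradiated C57Bl/6 mice had 9.14 log2 CPM at the lowest, 10.43 at the median and 11.96 at the highest (n = 32), against 7.73, 9.28 and 10.29 in sham (n = 16). The groups overlapped, with 17 of 32 irradiated mice above the highest sham value. The log2 fold change was 1.22 ± 0.18, or 2.33-fold (95% interval 1.82 to 2.97; adjusted p = 2.34e-09), in a comparison that called 14.1% of the tested miRNA.

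Irradiated C3H mice at day 5 had 9.47 log2 CPM at the lowest, 10.40 at the median and 11.95 at the highest (n = 32), against 8.74, 9.91 and 11.33 in sham (n = 16). Only 3 of the 32 irradiated mice exceeded the highest sham value, and the log2 fold change of 0.40 ± 0.17 (95% interval 0.06 to 0.74) did not pass the threshold (adjusted p = 0.296, 3.11% called). The fall of the effect from day 2 to day 5 was 1.15 ± 0.24 in C57Bl/6 mice (adjusted p = 0.00036, 6.63% called). In C3H mice it was 0.76 ± 0.24, which did not pass (p = 0.00163, adjusted p = 0.262), and there 0% of the miRNA tested were called, with 19 of 483 at an unadjusted p below 0.05. Among C3H females alone the fall was 1.22 and was called (adjusted p = 0.0278), and among C57Bl/6 males alone it was 0.97 and was not (adjusted p = 0.162).

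The 2 strains differed in the size of the response. Over the 6 shared time points after exposure, the test of the strain difference in the irradiation effect gave F = 6.98 (adjusted p = 3.51e-05), the fourth lowest p-value in a test that called 4.35% of the miRNA, and it was lost in cohort 1 alone (F = 3.49, adjusted p = 0.0888) and in males alone (F = 2.07, adjusted p = 0.545). At day 2 the effect was 1.21 ± 0.24 larger in C57Bl/6 mice on the log2 scale (adjusted p = 0.000278). miR-375-3p had the lowest p-value there, and 0.621% of the miRNA tested were called. In single cohorts the day 2 difference was 1.25 and 1.22 but was no longer called (adjusted p = 0.0624 and 0.127), and among males it was 0.91 (adjusted p = 0.741). At day 5 the difference was 0.82 ± 0.24 (adjusted p = 0.0347, 1.86% called), a call that was lost under 9 of 19 other settings. From month 1 to month 4 it was 0.12, 0.18, -0.31 and 0.37, none called (1.24%, 0.207%, 0.414% and 1.24% of miRNA called).

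**Figure D2:**
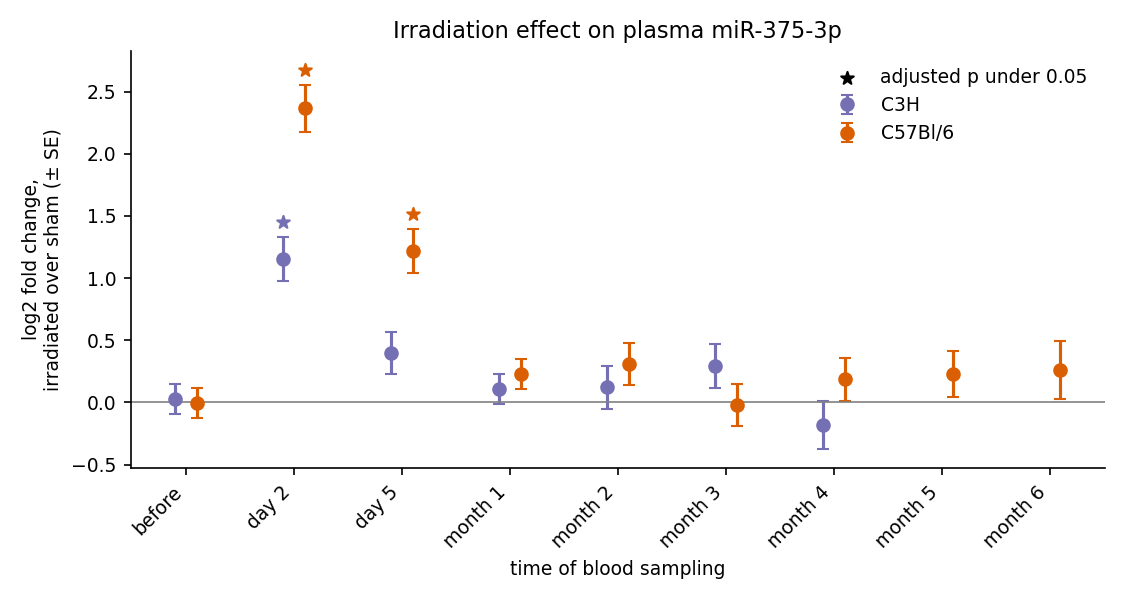
Log2 fold change of miR-375-3p, irradiated over sham (vertical axis, ± SE), at each time of blood sampling (horizontal axis) in C3H (purple) and C57Bl/6 mice (orange), with stars for adjusted p under 0.05. The effect is 2.37 in C57Bl/6 and 1.16 in C3H mice at day 2, 1.22 and 0.40 at day 5, and between -0.18 and 0.31 in every month.

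To see which samples carried the strain difference, the strains were also compared within treatment, a comparison added after these values were seen. At day 2, irradiated C57Bl/6 mice were higher than irradiated C3H mice by 0.60 ± 0.14 (adjusted p = 0.000118, 37.3% called), and sham C57Bl/6 mice were lower than sham C3H mice by a similar amount, -0.61 ± 0.20 (adjusted p = 0.0124, 21.9% called). At day 5 the difference between irradiated mice of the 2 strains was 0.09 ± 0.14 (95% interval -0.18 to 0.36, adjusted p = 0.652, 36.9% called), while the sham C57Bl/6 mice were lower by -0.73 ± 0.20 (adjusted p = 0.00121, 33.5% called). Cohort and sex moved these values. At day 2 the irradiated difference was 0.40 in males and not called (adjusted p = 0.0896), and the sham difference was -0.69 in cohort 2 (adjusted p = 0.059), -0.66 in females (adjusted p = 0.0651) and -0.51 in males (adjusted p = 0.206), none called. At day 5, the irradiated strains differed by -0.40 in cohort 1 (adjusted p = 0.0743) and by 0.52 in cohort 2 (adjusted p = 0.0264). The sham difference was -1.45 in females (adjusted p = 7.18e-07) and 0.15 in males (adjusted p = 0.712).

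The levels after exposure were also compared with those before it, over all mice of the strain and treatment and without pairing the samples of a mouse. Irradiated mice of both strains were higher than before exposure. At day 2 the increase was 1.92 ± 0.11 in C57Bl/6 (adjusted p = 5.09e-52, 35.8% called) and 1.34 ± 0.12 in C3H mice (adjusted p = 3.34e-27, 38.3% called). At day 5 it was 0.65 ± 0.12 (adjusted p = 4.77e-07, 32.7% called) and 0.59 ± 0.12 (adjusted p = 6.39e-06, 34.8% called), respectively. The day 5 increase was 0.32 in C57Bl/6 females (adjusted p = 0.101) and 0.44 in C3H mice of cohort 2 (adjusted p = 0.0813), neither called. Sham C57Bl/6 mice (n = 16 at each day) had a lower mean level than the 32 sham mice of that strain before exposure. Single values overlapped, with 9.08 to 10.79 log2 CPM before exposure, 8.79 to 10.30 at day 2 and 7.73 to 10.29 at day 5. The difference was 0.46 ± 0.17 on the log2 scale at day 2 (adjusted p = 0.041, 21.5% called) and 0.58 ± 0.17 at day 5 (adjusted p = 0.00534, 30% called). Sham C57Bl/6 mice were also lower at month 1 (-0.37, adjusted p = 0.0362, 24.8% called), month 3 (-0.55, adjusted p = 0.00685, 32.3% called), month 4 (-0.58, adjusted p = 0.00477, 29.6% called) and month 5 (-0.43, adjusted p = 0.0487, 27.7% called). At month 2 (-0.29, adjusted p = 0.26, 16.1% called) and month 6 (-0.40, adjusted p = 0.0603, 33.3% called) the difference did not pass. From month 2 on, cohort 1 mice were set against a level before exposure that included both cohorts. In cohort 1 alone the month 6 difference was -0.56 and was called (adjusted p = 0.0119). Sham C3H mice had differences between -0.18 and 0.31, from day 2 to month 4, and none was called (25.7%, 17.4%, 32.1%, 19.5%, 23.8% and 38.5% of miRNA called). The day 5 fall in C57Bl/6 sham mice became -0.47 (adjusted p = 0.0623) when the cohort 2 females of that strain and day were left out, -0.29 in males (adjusted p = 0.45) and -0.44 in cohort 2 (adjusted p = 0.179). The month 3 fall was -0.17 in females (adjusted p = 0.707). The calls at day 2, day 5, month 1, month 3, month 4 and month 5 were lost under 4, 3, 5, 2, 1 and 7 other settings.

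From month 1 on, no single time point was called in either strain. In C57Bl/6 mice the log2 fold changes were 0.23 at month 1, 0.31 at month 2, -0.02 at month 3, 0.19 at month 4, 0.23 at month 5 and 0.26 at month 6 (adjusted p between 0.367 and 0.979). Of the miRNA tested, 3.73%, 3.31%, 1.66%, 4.76%, 3.52% and 0.414% were called at months 1 to 6. Their mean over the 6 months was 0.20 ± 0.07 and was called (adjusted p = 0.0358), in a test that called 22.8% of the miRNA. This call was lost under 6 of 18 other settings. The test took the repeated samples of a mouse over the months as independent. With a fixed term for the mouse, the mean was 0.27 ± 0.14 and was not called (limma, adjusted p = 0.296). With the mouse as a block by duplicateCorrelation it was still called. In C3H mice the monthly values were 0.11, 0.12, 0.29 and -0.18 (adjusted p between 0.402 and 0.959; 3.31%, 0.621%, 2.07% and 0.414% called), with a mean of 0.08 ± 0.08 (adjusted p = 0.588, 16.4% called).

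Over the 32 combinations of strain, treatment and time, the highest mean levels were those of irradiated C57Bl/6 mice at day 2 (11.69 ± 0.78 log2 CPM, SD, n = 32) and irradiated C3H mice at day 2 (11.07 ± 0.81, n = 32). Irradiated C57Bl/6 (10.45 ± 0.71, n = 32) and C3H mice (10.40 ± 0.60, n = 32) at day 5 came next, followed by irradiated (10.23 ± 0.56, n = 58) and sham C3H mice (10.13 ± 0.54, n = 32) at month 1. The lowest mean was that of sham C57Bl/6 mice at day 5 (9.25 ± 0.69, n = 16). Each of the 32 means lay within 1 SD, the spread of single mice, of the next in the order. The means of the first 2 nevertheless differed by the test given above (0.60 ± 0.14), while the differences between the third and the fourth (irradiated mice of the 2 strains at day 5) and between the fifth and the sixth (C3H mice at month 1) were not called.

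The change within single mice was examined next, since the labels tie the samples of a mouse. All 32 irradiated C57Bl/6 mice had more miR-375-3p at day 2 than before exposure, and in 28 of them it at least doubled. Their changes ran from 0.30 to 3.23 on the log2 scale (median 1.65), compared to -1.21 to 0.63 (median -0.38) in 16 sham mice, of which 3 rose. The mean changes of 1.78 ± 0.77 (SD) and -0.35 ± 0.45 differed by 2.13 (two-sided permutation test, p = 2e-05, the smallest that 100000 resamples can give; adjusted p = 0.00014 over 14 comparisons). The highest rise was in a female that went from 833.0 to 7815 CPM.

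In C3H mice at day 2, 30 of 32 irradiated mice rose and 21 doubled. Changes ran from -0.19 to 3.47 (median 1.12), against -1.72 to 1.10 (median 0.37) in 16 sham mice, of which 12 rose. The difference of the means was 1.13 (permutation test, adjusted p = 0.000187). At day 5, 26 of 32 irradiated C57Bl/6 mice were above their own earlier level and 11 had doubled, against 4 of 16 sham mice above it. The mean changes were 0.59 ± 0.76 and -0.76 ± 0.85 (difference 1.34, permutation test, adjusted p = 0.00014). In C3H mice at day 5, 21 of 32 irradiated and 8 of 16 sham mice rose, and the difference of 0.42 did not pass (permutation test, p = 0.0517, adjusted p = 0.103). Of the later comparisons, C57Bl/6 month 2 (0.44) and month 5 (0.63) came closest, both with an adjusted p of 0.0542 by the permutation test.

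**Figure D3:**
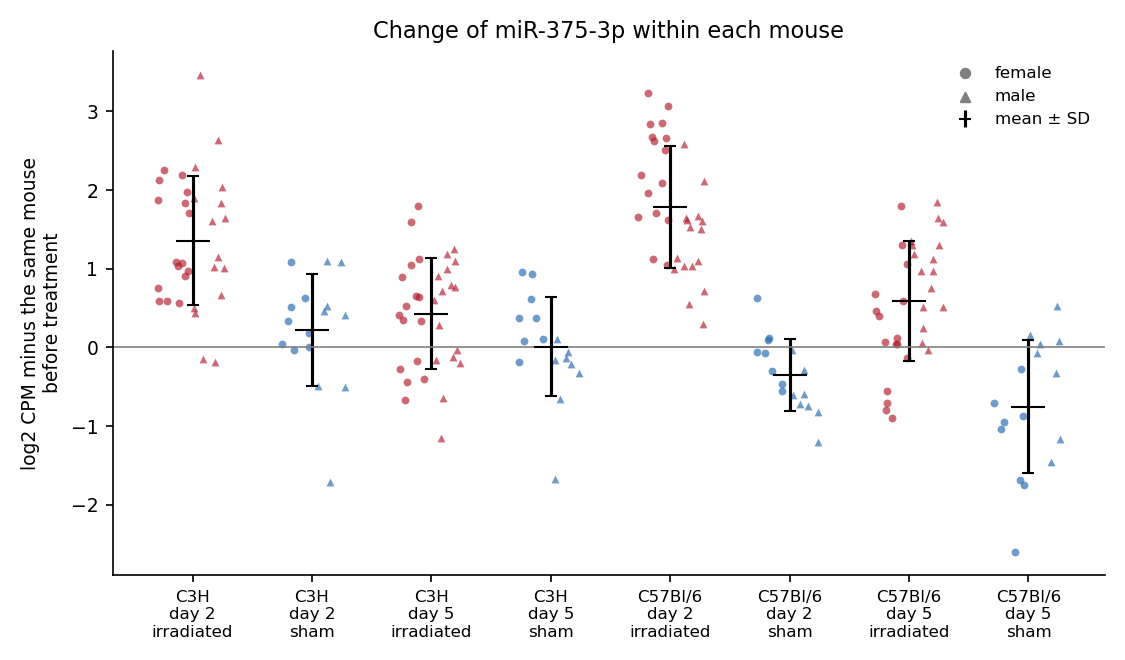
Change of miR-375-3p in each mouse, as log2 CPM minus the same mouse's value before treatment (vertical axis), by strain, day and treatment (horizontal axis). Circles are females, triangles males, and bars the mean ± SD. All 32 irradiated C57Bl/6 mice at day 2 lie above 0, whereas 3 of 16 sham C57Bl/6 mice do.

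The rise at day 2 was called in females and in males of both strains. In C57Bl/6 mice the day 2 log2 fold change was 2.53 ± 0.25 in females (11.8% called) and 2.03 ± 0.24 in males (1.1% called), and in C3H mice 1.25 ± 0.23 (3.13% called) and 1.10 ± 0.23 (0.921% called), all called. The sex difference of the effect was 0.50 ± 0.31 in C57Bl/6 (adjusted p = 0.47, 0.184% called) and 0.15 ± 0.31 in C3H mice (adjusted p = 1, 0.184% called). At day 5 in C3H mice, the effect was 0.88 ± 0.23 in males (adjusted p = 0.0245, 1.1% called) and 0.03 ± 0.22 in females (adjusted p = 1, 1.1% called). The difference of -0.85 ± 0.31 (95% interval -1.46 to -0.24) had an unadjusted p of 0.00663 by edgeR but did not pass after adjustment (adjusted p = 0.514). Here 0% of the miRNA were called for a sex difference. At day 5 in C57Bl/6 mice the effect was 1.38 ± 0.24 in females (14.4% called) and 1.23 ± 0.23 in males (4.42% called), with a difference of 0.15 ± 0.31 (adjusted p = 0.874, 3.5% called).

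The level itself was higher in irradiated females than in irradiated males at day 2, a comparison added after the values were seen. The females were also the older mice, and a difference of sex cannot be told apart from one of age. In irradiated mice at day 2 the comparison was of females minus males. The level was higher by 0.88 ± 0.18 in C57Bl/6 (adjusted p = 5.83e-05, 13.1% called) and by 0.69 ± 0.18 in C3H mice (adjusted p = 0.00617, 3.31% called). Before exposure females exceeded males by 0.33 ± 0.11 in C3H (adjusted p = 0.0306, 13.3% called) and by 0.10 ± 0.11 in C57Bl/6 mice (adjusted p = 0.634, 12.2% called). At day 5 the difference between the irradiated sexes was not called, with 0.19 ± 0.18 in C3H (adjusted p = 0.947, 0.552% called) and -0.41 ± 0.18 in C57Bl/6 mice (adjusted p = 0.179, 6.81% called). The gap was not tested within cohorts or in sham mice, and the values are given here. In cohort 1, irradiated C57Bl/6 females ran from 11.46 to 12.93 log2 CPM (median 12.64, n = 8), and males from 10.27 to 11.34 (median 10.69, n = 8), without overlap. In cohort 2 the females ran from 11.04 to 12.60 (median 11.98, n = 8) and overlapped with the males at 11.22 to 12.24 (median 11.68, n = 8). Irradiated C3H females had a mean of 11.68 ± 0.67 (SD, n = 8) and males 10.28 ± 0.60 (n = 8) in cohort 1, but 11.21 ± 0.69 and 11.10 ± 0.66 (n = 8 each) in cohort 2, where the median of the males was the higher one (11.08 against 10.97). Sham mice at day 2 showed gaps of the same kind. Sham C3H females had 10.51 ± 0.60 and males 9.12 ± 0.60 in cohort 1 (n = 4 each), and 10.07 ± 0.37 and 10.24 ± 0.31 in cohort 2 (n = 4 each). Sham C57Bl/6 females had 9.74 ± 0.40 and males 9.04 ± 0.19 in cohort 1, and 9.62 ± 0.17 and 9.46 ± 0.49 in cohort 2 (n = 4 each). In both strains and treatments the females were thus further above the males in cohort 1 than in cohort 2, without a test of that difference.

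The effect at day 2 recurred in both cohorts. It was 2.44 and 2.29 in cohorts 1 and 2 of C57Bl/6 mice (8.9% and 1.86% called) and 1.21 and 1.11 in those of C3H mice (1.45% and 2.48% called), with all 4 called. At day 5 it was 1.09 and 1.33 in C57Bl/6 (6.83% and 19.9% called). In C3H mice the day 5 effect was 0.67 in cohort 1 (adjusted p = 0.118, 2.69% called) and 0.06 in cohort 2 (adjusted p = 1, 0.828% called), a difference of 0.61 ± 0.33 that did not pass (adjusted p = 0.999, 0% called). Across the 4 combinations of cohort and sex, the log2 fold changes at day 2 were 1.72 to 2.80 in C57Bl/6 mice. In C3H mice they were 1.10 to 1.34. All were called except that of C3H males of cohort 1 (1.10, adjusted p = 0.143, 0% called). The shares of miRNA called ran from 0% to 5.52%. At day 5 they spread further, from 0.71 to 2.11 in C57Bl/6 and from -0.28 to 1.14 in C3H mice. In C57Bl/6 mice that of the cohort 1 females was not called (0.71, adjusted p = 0.167, 1.66% called). In C3H mice only that of the cohort 1 males was called (1.14, adjusted p = 0.0248, 1.1% called). The largest day 5 value, in cohort 2 C57Bl/6 females, stood beside low sham samples, among them the lowest sample of the series. The 4 sham mice had 7.73 to 8.93 log2 CPM (median 8.51), compared to 9.73 to 10.29 (median 9.99) in the 4 sham males of that cohort, and 24.9% of all miRNA tested were called in these females. Without the cohort 2 females the C57Bl/6 effect at day 5 was 1.06 (adjusted p = 4.92e-05).

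In irradiated mice, no relation between the levels of a mouse at 2 times passed after adjustment. The largest r was 0.38, between day 2 and month 1 in C3H mice (n = 29, permutation test, p = 0.0416, adjusted p = 0.153). Between-mouse differences made up 9.38% to 34.4% of the variance of log2 CPM within a strain and treatment once time was accounted for. In irradiated mice, the level before exposure correlated with that at day 2 with r = 0.32 (rho = 0.39) in C3H and r = 0.30 (rho = 0.29) in C57Bl/6 mice (n = 32 each), and none of 8 such relations passed (permutation tests, adjusted p for r between 0.153 and 0.34). In C3H mice the former was 0.69 in cohort 1 and 0.04 in cohort 2 (n = 16 each), and r was 0.47 without the 2 mice farthest from the median. In C57Bl/6 mice it was 0.41 and 0.19, and 0.23 without 2 mice. No difference in the early level was detected between cohort 1 mice that were and were not sampled at the last month. At day 2, 4 irradiated C57Bl/6 mice with a month 6 sample had 11.47 ± 1.39 (SD), and 12 without had 11.62 ± 0.92 (two-sided exact permutation test, adjusted p = 0.807). The corresponding C3H values were 10.74 ± 1.05 in 10 mice with and 11.38 ± 0.61 in 6 mice without a month 4 sample (exact permutation test, adjusted p = 0.427). At day 5 the sign was opposite in both strains. C57Bl/6 mice had 10.65 ± 0.71 with (n = 4) and 10.08 ± 0.76 without (n = 12) the later sample, and C3H mice 10.87 ± 0.55 (n = 7) and 10.55 ± 0.65 (n = 9). Neither difference passed (exact permutation test, adjusted p = 0.427 for each), and these groups are small.

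miR-375-3p was then set beside other miRNA of the tissues that make it. Of 7 miRNA typical of islets and neuroendocrine cells, 6 were tested, and none rose at day 2 or day 5 in either strain. In these comparisons 4.97% (C3H day 2), 3.11% (C3H day 5), 6.63% (C57Bl/6 day 2) and 14.1% (C57Bl/6 day 5) of all miRNA tested were called. miR-7a-5p, an abundant islet miRNA that restrains beta cell proliferation, fell by 0.70 ± 0.23 on the log2 scale in C57Bl/6 mice at day 2 (adjusted p = 0.045). miR-7b-5p, which is rare (4582 reads over all samples), fell in C3H mice at day 5 (-1.77 ± 0.53, adjusted p = 0.0308). The median log2 fold change of the list was -0.15 in C3H and 0.17 in C57Bl/6 mice at day 2, against -0.03 and -0.06 over all miRNA tested. At day 5 it was 0.03 and 0.00, against 0.00 and -0.00. None of 4 pancreatic acinar miRNA was called at either day in either strain, with medians of 0.11 and 0.20 at day 2 in C3H and C57Bl/6.

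Of 9 miRNA of the gut epithelium, all tested, 1 rose and 1 fell in C3H mice at day 2, none was called in C3H mice at day 5, 1 rose in C57Bl/6 mice at day 2, and 3 rose and 1 fell in C57Bl/6 mice at day 5. The shares called over all miRNA tested were 4.97%, 3.11%, 6.63% and 14.1%, respectively. The list medians were -0.16, 0.18, 0.32 and 0.29, in that order, against -0.03, 0.00, -0.06 and -0.00 over all miRNA tested. miR-192-5p, an abundant miRNA of the intestinal epithelium that is also made in liver and kidney, rose by 0.72 ± 0.18 in C3H (adjusted p = 0.00545) and by 0.92 ± 0.19 in C57Bl/6 mice at day 2 (adjusted p = 5.78e-05). It was still raised in C57Bl/6 mice at day 5 (0.75 ± 0.18, adjusted p = 0.000983). The other rises at day 5 in C57Bl/6 mice were those of miR-141-3p (1.01 ± 0.24, adjusted p = 0.000644) and miR-200a-3p (0.64 ± 0.18, adjusted p = 0.00412), which belong to the miR-200 family of epithelial cells and share a seed. miR-200c-3p, another member of that family, fell (-0.99 ± 0.33, adjusted p = 0.0234). miR-31-5p, which is made in squamous and injured gut epithelium, fell in C3H mice at day 2 (-0.62 ± 0.19, adjusted p = 0.0241). Also in the list are miR-194-5p (between -0.65 and -0.28), which is made from the same precursor transcripts as miR-192-5p, and miR-215-5p (between -0.54 and 0.42), and neither was called at these days. Several of these calls were sensitive to the settings, with miR-7a-5p lost under 13, miR-200c-3p under 9, miR-200a-3p under 7 and miR-141-3p under 4 of 20, while miR-192-5p was lost under 3, 2 and 3. In C57Bl/6 mice at day 5, all 4 gut calls were lost without the cohort 2 females, where miR-192-5p had 0.54 (adjusted p = 0.14), miR-141-3p 0.52, miR-200a-3p 0.35 and miR-200c-3p -0.72.

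**Figure D4:**
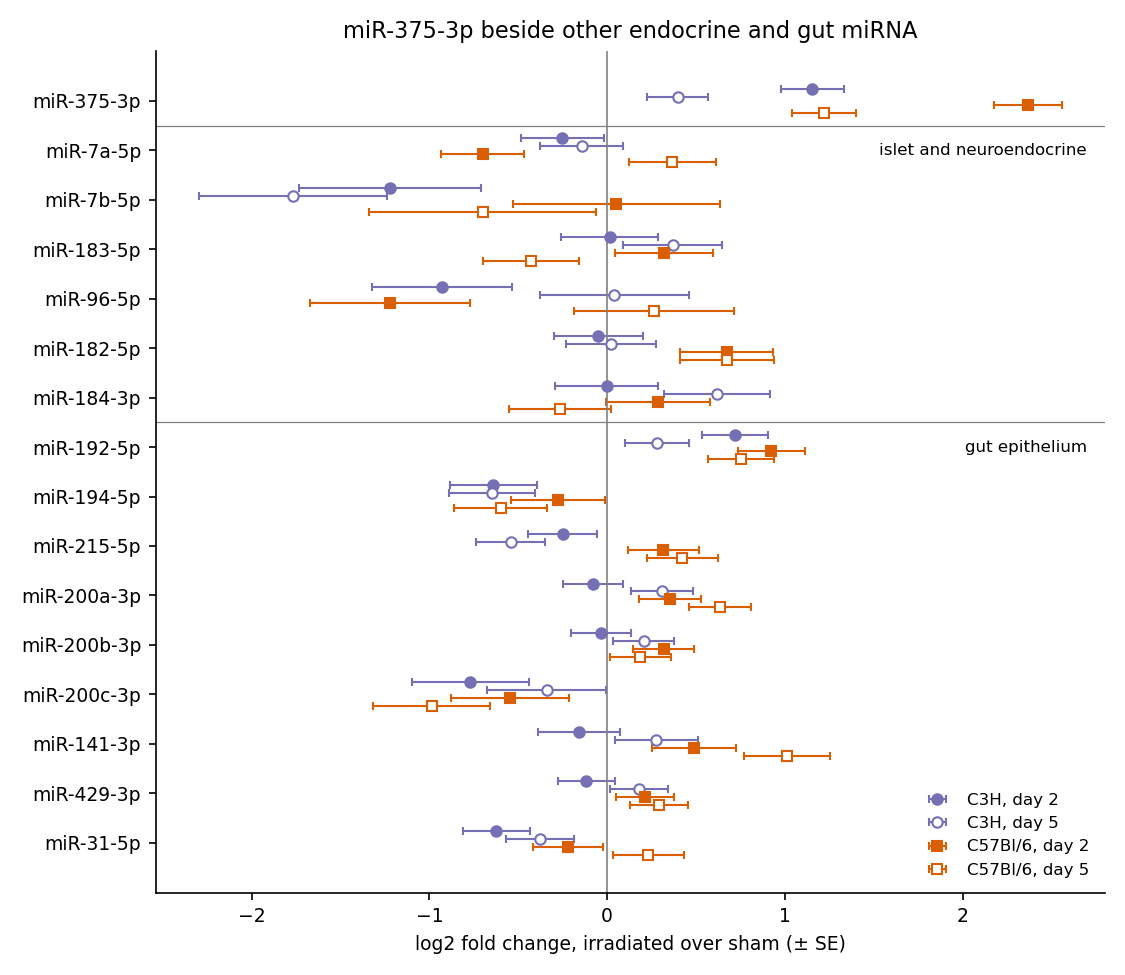
Log2 fold change, irradiated over sham (horizontal axis, ± SE), of miR-375-3p (top) and of the tested islet and neuroendocrine (middle) and gut epithelium miRNA (bottom). Purple circles are C3H, orange squares C57Bl/6, filled at day 2 and open at day 5. The day 2 value of 2.37 for miR-375-3p in C57Bl/6 mice lies to the right of all others plotted, and miR-192-5p is the gut miRNA that rises with it at day 2 in both strains (0.72 and 0.92).

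Markers of other sources moved differently. Of 5 leukocyte miRNA, none rose, and 4, 3, 2 and 4 fell in C3H day 2, C3H day 5, C57Bl/6 day 2 and C57Bl/6 day 5, respectively, where 4.97%, 3.11%, 6.63% and 14.1% of all miRNA were called. Among them, miR-150-5p of lymphocytes fell in all 4 comparisons, by 1.70 ± 0.14 in C3H and by 1.55 ± 0.15 in C57Bl/6 mice at day 2 (adjusted p = 4.56e-27 and 9.72e-23). miR-155-5p, of activated lymphocytes, also fell in all 4 (from -1.51 to -0.79). miR-142a-5p fell in C3H mice at day 2 (-1.10) and day 5 (-0.81), miR-142a-3p in C3H mice at day 2 (-0.99) and in C57Bl/6 mice at day 5 (-1.54), and the myeloid miR-223-3p in C57Bl/6 mice at day 5 (-1.12). Without the cohort 2 females at day 5, miR-142a-3p (-0.42), miR-223-3p (-0.38) and the hepatocyte miR-122-3p (-2.49) were no longer called, and miR-150-5p (-1.41), miR-155-5p (-0.88) and miR-122-5p (-1.90) still were. The hepatocyte miRNA miR-122-5p fell in C3H mice at day 2 (-1.06, adjusted p = 0.0213) and in C57Bl/6 mice at day 2 (-1.69, adjusted p = 5.52e-06) and day 5 (-1.74, adjusted p = 1.36e-06), where miR-122-3p fell too (-2.69, adjusted p = 0.0187). The latter is rare, with 1556 reads over all samples. Its median in C57Bl/6 mice at day 5 was 0.23 log2 CPM in both irradiated and sham mice. Of 4 red blood cell miRNA, miR-144-3p rose in C3H mice at day 5 (0.90, adjusted p = 0.019) and none was called otherwise. None of 3 muscle and 2 skin epithelium miRNA was called either. The call of miR-144-3p was lost under 10 of 20 other settings, that of miR-122-5p in C3H mice at day 2 under 7 of 20 and that of miR-122-3p under 9 of 18. The part of these cell types in the level of miR-375-3p was not tested.

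Among the irradiated mice at day 2, miR-192-5p varied closely with miR-375-3p between individual mice. This relation was examined after the values had been seen, in 12 combinations of strain, treatment and time. In irradiated C3H mice at day 2, log2 CPM of the pair correlated with r = 0.93 and rho = 0.91 (n = 32; permutation test, p = 1e-05, the smallest that the resamples can give; adjusted p for r = 6e-05). It was 0.93 without the 2 mice farthest from the median of miR-192-5p, 0.96 and 0.91 within cohorts 1 and 2, and 0.90 after removal of the cohort and sex means. In sham C3H mice at day 2 r was 0.88 (rho = 0.77, n = 16; permutation test, adjusted p = 6e-05). This sham value was 0.71 without 2 mice, 0.93 in cohort 1 and 0.51 in cohort 2 (n = 8 each). At day 5 in C3H mice r was 0.90 in sham (rho = 0.89) and 0.54 in irradiated mice (rho = 0.44; 0.37 without 2 mice, 0.81 in cohort 1 and 0.17 in cohort 2). In C57Bl/6 mice at day 2 r was 0.60 in irradiated (rho = 0.56) and 0.50 in sham mice (rho = 0.49; permutation test, adjusted p = 0.0561). The latter was 0.07 in cohort 1 and 0.87 in cohort 2 (n = 8 each). At day 5 in C57Bl/6 mice r was 0.67 in irradiated (rho = 0.69) and 0.79 in sham mice (rho = 0.75). Before exposure in C3H mice r was -0.06 in those assigned to irradiation and -0.05 in those assigned to sham, but 0.77 and 0.64 in cohort 1 against 0.16 and -0.17 in cohort 2, while in C57Bl/6 mice it was 0.50 and 0.48. Both values of a mouse come from 1 library and share its depth and scaling.

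miR-375-3p rose more than miR-192-5p in the same plasma. The within-library difference of their log2 CPM does not depend on library scaling. It was -0.94 ± 0.63 (SD, n = 32) in irradiated and -2.17 ± 0.61 (n = 16) in sham C57Bl/6 mice at day 2, a shift of 1.23 (two-sided permutation test, p = 2e-05, adjusted p = 0.00012), and 21 of 32 irradiated mice were above the highest sham mouse. In C3H mice at day 2 it was -1.41 ± 0.31 and -1.79 ± 0.32, a shift of 0.38 (permutation test, adjusted p = 0.00048). At day 5 the shift was 0.37 in C57Bl/6 (permutation test, adjusted p = 0.0399) and 0.12 in C3H mice (adjusted p = 0.61), and before exposure it was 0.02 and 0.00.

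**Figure D5:**
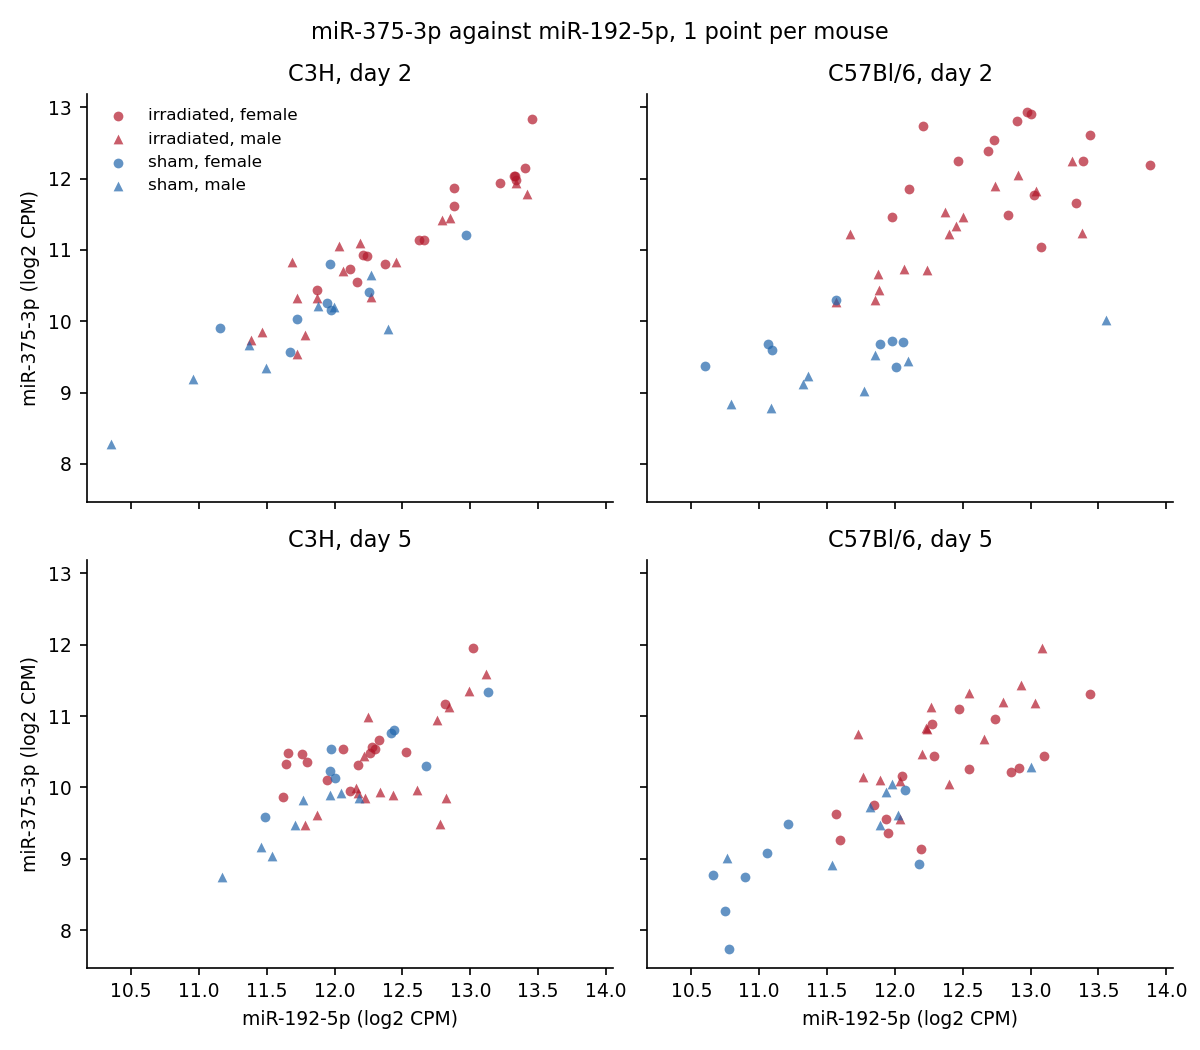
miR-375-3p (vertical axis) against miR-192-5p (horizontal axis), both in log2 CPM, with 1 point per mouse for C3H (left) and C57Bl/6 (right) at day 2 (top) and day 5 (bottom). Irradiated mice are red, sham blue, females circles and males triangles. At day 2 the pair rises together within each C3H group (r = 0.93 and 0.88, the latter 0.51 in cohort 2), and the mean difference between the pair is shifted by 0.38 in irradiated over sham C3H mice and by 1.23 in C57Bl/6 mice.

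Over the 14 combinations of strain and time after exposure, the irradiation effects most like those of miR-375-3p were those of miR-202-3p (r = 0.84), miR-202-5p (r = 0.80), miR-182-5p (r = 0.79), miR-200b-3p (r = 0.77) and miR-744-5p (r = 0.74). Over 482 miRNA this r had a median of -0.01 and a 95th percentile of 0.60. The combinations share sham groups of mice, and r is a description. Both arms of miR-202, a miRNA of the gonads, are in this set, and the 3p arm is rare (3.61 RPM on average). At day 2 miR-202-3p rose by 2.46 ± 0.68 in C3H (adjusted p = 0.0158) and 3.24 ± 0.74 in C57Bl/6 mice (adjusted p = 0.000588), and miR-202-5p by 2.2 ± 0.70 in C57Bl/6 mice (adjusted p = 0.0305), with 1.98 ± 0.68 in C3H mice that did not pass (adjusted p = 0.0584). Irradiated and sham medians of miR-202-3p were closer, at 3.06 and 2.11 log2 CPM in C3H and 1.84 and 0.98 in C57Bl/6 mice. Its SD in irradiated mice was 2.58 in C3H and 2.50 in C57Bl/6, with values down to 0.23. At day 5 its effects were -0.21 in C3H and 0.12 in C57Bl/6 mice, neither called. The day 2 value of miR-202-5p in C57Bl/6 mice was 2.19 in females and -0.05 in males, in separate fits of each sex, with no test of the difference between them. miR-744-5p rose in C3H mice at day 2 (0.31, adjusted p = 0.0201) and in C57Bl/6 mice at day 2 (0.27, adjusted p = 0.045) and day 5 (0.51, adjusted p = 1.59e-06). Under other settings the day 2 calls of miR-744-5p were lost 6 and 8 times of 20, that of miR-202-5p 9 times of 20, and those of miR-202-3p 5 times in C3H and 2 times in C57Bl/6 mice of 18. miR-182-5p, a sensory and neuroendocrine miRNA, had 0.67 at both days in C57Bl/6 mice (adjusted p = 0.0952 and 0.0691) and -0.05 and 0.02 in C3H mice, and miR-200b-3p had -0.03 to 0.32. None of these values of the latter 2 was called.

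Within groups, the deviations of miR-375-3p from its group means over all 899 samples were most like those of miR-215-5p (r = 0.46), miR-192-5p (r = 0.41), miR-215-3p (r = 0.40), miR-132-3p (r = 0.37) and miR-150-5p (r = 0.32), among 243 miRNA with a mean of at least 10 RPM (median r 0.00, 95th percentile 0.23). Among the irradiated mice at day 2 alone, r was 0.78 for miR-192-5p, 0.39 for miR-215-5p and -0.12 for miR-150-5p. miR-192-5p and miR-215-5p share the seed printed above. miR-150-5p, a lymphocyte miRNA, fell in the comparisons in which miR-375-3p rose.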

How the data were processed

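Plasma small RNA libraries of 899 samples from 196 mice were used. The authors used Illumina BaseSpace tools for adaptor and quality trimming and for alignment (mm10), and deposited raw counts per mature miRNA without normalization. They had left out hemolysed plasma and runs with few miRNA reads, and the samples left out were not examined here. For the samples kept, a red blood cell ratio and a minimum of reads were among the alternatives. The miRBase release and any use of molecular identifiers are not given in the sources used here.

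Groups are strain, treatment and time from the sample labels. Of 1915 miRNA listed, 483 passed edgeR's filterByExpr and held 99.99% of the reads. TMM factors ran from 0.372 to 1.59. edgeR 4.0.16 (R 4.3.3) quasi-likelihood tests used 32 group means over all samples, and p-values were adjusted by Benjamini-Hochberg within each comparison at 0.05. Sex, and cohort with sex, were fitted with more groups over 543 miRNA, and cohort alone over 483. Changes within a mouse and correlations used permutation tests with 100000 resamples (scipy 1.17.1). Scripts were tested on simulated data. Replicates are separate mice. The labels tie the samples of a mouse. The estimated correlation between them, a consensus over all miRNA tested, was 0.0434. For miR-375-3p itself, differences between mice made up 9.38% to 34.4% of the variance once time was accounted for. The mouse as a block (limma 3.58.1) was an alternative, as were DESeq2 1.42.0, other scalings, filters, covariates and subsets.

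The miRNA and the lists were chosen with earlier results of these data known. The named miRNA are miR-375, list members called at day 2 or day 5, and the 5 most alike by each of 2 correlations. The strain levels, the change from before exposure, the sham level over time, the sex levels and the relation to miR-192-5p were added after values were seen, and list members that were not called are named on the same terms. Sequences are from RefSeq, GRCm38.p6, and neighbouring genes from the GENCODE annotation of that build.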

Additional observations from a re-analysis of the deposited data

Results flagged for a closer look

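The response of miR-375-3p differed between strains and between days by tests of the difference itself. The test of the strain difference over 6 time points gave F = 6.98. The effect was 1.21 larger on the log2 scale in C57Bl/6 than in C3H mice at day 2 and 0.82 larger at day 5. In C57Bl/6 mice the effect at day 2 exceeded that at day 5 by 1.15. The days were measured in different mice. The cause of these differences was not tested.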

How the results depend on the processing

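The effects in C3H mice at day 2 (1.00 to 1.26), in C57Bl/6 mice at day 2 (2.04 to 2.55) and in C57Bl/6 mice at day 5 (1.06 to 1.30) were called under all 20 other settings. Values below are log2 differences unless named F, and the cause of each change was not tested. "Sham drift" is the sham level minus that before exposure, and "strain level" is C57Bl/6 minus C3H within a treatment. Fewer samples enter the fits of 1 cohort or 1 sex.

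The day 5 strain difference lost its call with total counts (0.87), limma-voom (0.77), quantile-normalized values (0.77), a minimum of 10 CPM (0.75), cohort 1 (0.46), males (0.16) and without the cohort 2 C57Bl/6 females (0.64). The day 2 strain difference lost it in cohort 1 (1.25), cohort 2 (1.22) and males (0.91), and the F test in cohort 1 (F = 3.49) and males (F = 2.07). The fall from day 2 to day 5 lost its call in C57Bl/6 males (0.97) and gained one in C3H females (1.22). The C3H day 5 effect was called in males (0.91) and reversed in cohort 2 (-0.055). The monthly mean in C57Bl/6 mice lost its call with total counts (0.19), no filter (0.17), in females (0.19), in males (0.18) and at 500000 or more reads (0.18).

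With the mouse as a replicate block, duplicateCorrelation gave 0.78 for the day 5 strain difference (call lost; adjusted p = 0.119), -0.40 for the C57Bl/6 sham drift at month 6 (call gained), and -0.038 (C3H before exposure) and 0.013 (C57Bl/6 month 3), both with the sign changed. A fixed term for the mouse as the block gave 0.87 for the day 5 strain difference (adjusted p = 0.187) and 0.27 for the monthly mean in C57Bl/6 mice (adjusted p = 0.296), both calls lost, -0.48 for the sham drift at month 6 (call gained) and 0.10 for C57Bl/6 month 3 (sign changed). The block changed no other call.

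The C57Bl/6 sham drift lost its call at day 2 with limma-voom (-0.45), quantile-normalized values (-0.44), in cohort 2 (-0.31) and in females (-0.28). It did so at day 5 in cohort 2 (-0.44), in males (-0.29) and without the cohort 2 females (-0.47). At month 1 it did so with total counts (-0.27), the red blood cell ratio (-0.28), in cohort 1 (-0.28), in females (-0.31) and in males (-0.44), at month 3 with total counts (-0.37) and in females (-0.17), and at month 4 in males (-0.48). At month 5 it did so with DESeq2 size factors (-0.42), total counts (-0.36), no filter (-0.46), the red blood cell ratio (-0.34), in females (-0.41), in males (-0.44) and at 500000 or more reads (-0.42). It gained a call at month 6 with DESeq2 size factors (-0.43), the DESeq2 Wald test (-0.43), quantile-normalized values (-0.53), a minimum of 10 CPM (-0.52), cohort as a covariate (-0.48) and in cohort 1 (-0.56). The C3H sham drift was called with total counts at day 2 (0.67) and month 1 (0.56) and by the DESeq2 Wald test at month 1 (0.33).

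The strain level lost its call at day 2 in irradiated males (0.40) and in sham cohort 2 (-0.69), females (-0.66) and males (-0.51). At day 5, irradiated, it was called in cohort 2 (0.52) and changed sign in cohort 1 (-0.40), in females (-0.21) and without the cohort 2 females (-0.015), and in sham males it changed sign (0.15). Irradiated minus before at day 5 lost its call in C3H cohort 2 (0.44) and C57Bl/6 females (0.32). Own change in C57Bl/6 mice was called with total counts at months 2 (0.62), 4 (0.61) and 5 (0.73).

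Other sign changes were in values that were not called. They were C3H before exposure with limma-voom (-0.038) and in cohort 2 (-0.21), C57Bl/6 before exposure with quantile-normalized values (0.015), cohort as a covariate (0.0015), in cohort 2 (0.14), in females (0.033) and at 500000 or more reads (0.0054), and C3H month 1 in cohort 2 (-0.037). The C57Bl/6 effect at month 3 did so with DESeq2 size factors (0.0032), the DESeq2 Wald test (0.0032), limma-voom (0.0044), quantile-normalized values (0.076), a minimum of 10 CPM (0.028) and in males (0.039). The strain difference did so at month 1 in cohort 1 (-0.0021) and females (-0.052) and at month 2 in males (-0.085), and the baseline strain difference in females (-0.087). The C3H sham drift did so at day 5 in males (-0.24), at month 2 with quantile-normalized values (-0.088), cohort as a covariate (-0.0033) and in males (-0.21), at month 3 with total counts (0.036) and at month 4 in females (-0.088). Own change in C3H mice at month 2 became 0.088 with total counts, and the called miR-202-5p effect in C57Bl/6 mice at day 2 became -0.053 in males.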

Other observations

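Among irradiated C3H mice, the level of miR-375-3p before exposure differed by cohort and sex. The 16 males of cohort 2 had 9.21 ± 0.46 log2 CPM (SD), compared to 9.99 ± 0.54 in the 16 males of cohort 1 and to 9.95 ± 0.32 and 10.20 ± 0.40 in the 16 females of cohorts 2 and 1. These values were picked after they were seen and carry no test. The correlation of miR-375-3p with miR-192-5p before exposure in this strain was also different in the 2 cohorts, with r = 0.77 in cohort 1 and 0.16 in cohort 2 among the 64 mice assigned to irradiation.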
